A study of Homo sapiens with 17 samples.

Results

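The AP-1 and immediate early genes described here are 10 transcripts, *FOS*, *FOSB*, *FOSL1*, *FOSL2*, *JUN*, *JUNB*, *JUND*, *ATF3*, *EGR1* and *IER2*, taken by gene symbol from the 57820 genes listed in each table of an RNA-seq series on the *SOX2* oncogene and its e1 enhancer. The series holds 17 libraries in 8 groups, 13 of them made in KYSE140, a line from a squamous tumour of the esophagus, and 4 in SKMES1, derived from squamous lung cancer. In KYSE140 that stably expressed a repressor fused to inactive Cas9 (CRISPRi), 2 guides directed to e1 (the e1 repression group) were set against 2 non-targeting guides. In KYSE140 that expressed active Cas9, 3 guides to the coding region of *SOX2* were set against a guide to AAVS1 and a guide to a control region named Chr2.2. Unmodified KYSE140 cells, as far as the labels say, received ARV-771, which degrades BET bromodomain proteins, at 0.5 µM or its solvent DMSO over 6 h, with 2 samples each. In SKMES1 that expressed the activator dCas9-VP64, 2 guides to e1 carried by the activator vector pXPR502 were set against 2 non-targeting guides. Guides were delivered by virus with drug selection and no clone was named, so the controls carried the same Cas9 or fusion and the same selection. A replicate is a different guide in the CRISPR groups and a lettered sample in the drug groups, nothing in the labels says that these were separate cultures, and p-values measure the spread between those samples only.

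AP-1 is a dimer of a FOS protein with a JUN protein, or of 2 JUN proteins, that grips DNA through paired basic leucine zippers. Immediate early genes are those whose transcription starts within minutes of a growth or stress signal without new protein synthesis, mostly through MAP kinases, SRF and its ternary complex factors, and CREB-like factors. In squamous epithelium AP-1 factors are known as regulators of the genes of late differentiation, such as involucrin and the small proline-rich proteins, and of proteases used in wound repair and invasion.

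The 300-base promoter windows of the RefSeq table (250 bases before the start and 50 after) covered 9 of the 10 genes, in 10 windows because *ATF3* has 2 starts. The stretches of 150 bases directly before the start are shown for 5 genes, *JUN* and *ATF3* because they share an octamer, and *FOS*, *EGR1* and *JUNB* as examples of different core elements. Not every combination in the family is shown. The window around each was found once on the gene's own chromosome and strand of GRCh37 (the build called hg19 by the authors). The rest of the genome was not searched. Capitals mark matches, on either strand, to TGACATCA, TGACGT, the CArG box and TATAAA.
JUN (minus strand of chr1:59249720-59249869): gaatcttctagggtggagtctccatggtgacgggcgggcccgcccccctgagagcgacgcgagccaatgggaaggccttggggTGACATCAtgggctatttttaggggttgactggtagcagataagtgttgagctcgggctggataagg
ATF3, upstream start (plus strand of chr1:212738599-212738748): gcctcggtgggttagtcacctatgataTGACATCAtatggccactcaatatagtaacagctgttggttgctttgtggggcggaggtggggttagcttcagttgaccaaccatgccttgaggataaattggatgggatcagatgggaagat
FOS (plus strand of chr14:75745381-75745530): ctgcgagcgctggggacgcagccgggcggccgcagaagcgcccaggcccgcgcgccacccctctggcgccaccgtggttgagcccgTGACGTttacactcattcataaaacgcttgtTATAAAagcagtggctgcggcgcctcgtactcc
EGR1 (plus strand of chr5:137801018-137801167): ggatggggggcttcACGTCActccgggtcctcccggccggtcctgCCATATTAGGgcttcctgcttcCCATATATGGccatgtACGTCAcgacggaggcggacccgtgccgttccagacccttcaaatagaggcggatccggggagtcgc
JUNB (plus strand of chr19:12902150-12902299): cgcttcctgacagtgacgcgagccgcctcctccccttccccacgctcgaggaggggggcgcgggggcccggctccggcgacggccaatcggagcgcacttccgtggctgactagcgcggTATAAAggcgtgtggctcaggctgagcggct

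In these windows, TGACATCA, the octamer described for the *JUN* promoter as a binding site of JUN and ATF2 dimers, lay at positions -67 to -60 from the *JUN* start and -123 to -116 from the upstream *ATF3* start. It was held by 2.61% of all 35116 windows. TGACGT, the core of the cyclic AMP response element that CREB and ATF factors read, was found in the windows of *FOS*, *FOSB*, *FOSL2*, *JUND* and *EGR1* and in 7.98% of all windows, and the full element TGACGTCA, which contains it, was found in that of *JUND* and in 1.85% of all windows. Among the windows of the 9 covered members, that of *EGR1* alone held CArG boxes, the SRF site, at -105 to -96 and at -83 to -74, against 1.29% of all windows. *FOSL1* had no window, and sites more than 250 bases before a start were not searched for any gene. TATAAA was found in the windows of *FOS*, *FOSB*, *JUNB* and the second start of *ATF3*, against 11.5% of all windows. The AP-1 site itself, TGANTCA, was matched among the covered members only in the window of *FOSL2*, 5 to 11 bases after the start, and in 7.71% of all windows. A match is a description of the letters and no evidence of binding, and these matches are compared with the measurements only by listing them.

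The transcripts differed widely in level, given as TPM, a share of all transcripts corrected for length and therefore allows levels of different genes to be set side by side. Across the 17 libraries *FOS* ranged from 1.62 to 6.40 TPM and *FOSB* from 0.17 to 3.91 TPM, so both prototypical serum-response members were low in every library. *JUNB* reached 563 TPM and *FOSL1* reached 631 TPM, and *FOSL1* had the widest range of the family, from 0.99 TPM, a fold range of 637. *EGR1*, a zinc finger factor outside AP-1, had the narrowest range, from 9.77 to 22.2 TPM. The count of reads behind *FOS* was 16 to 82 per library and behind *FOSB* 5 to 59, whereas no library had fewer than 164 reads for *JUNB*. The effective length that was estimated for *FOS* ran from 560 to 1954 bases between libraries, so for *FOS* the ratio of TPM and the ratio of counts can differ.

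**Figure D1:**
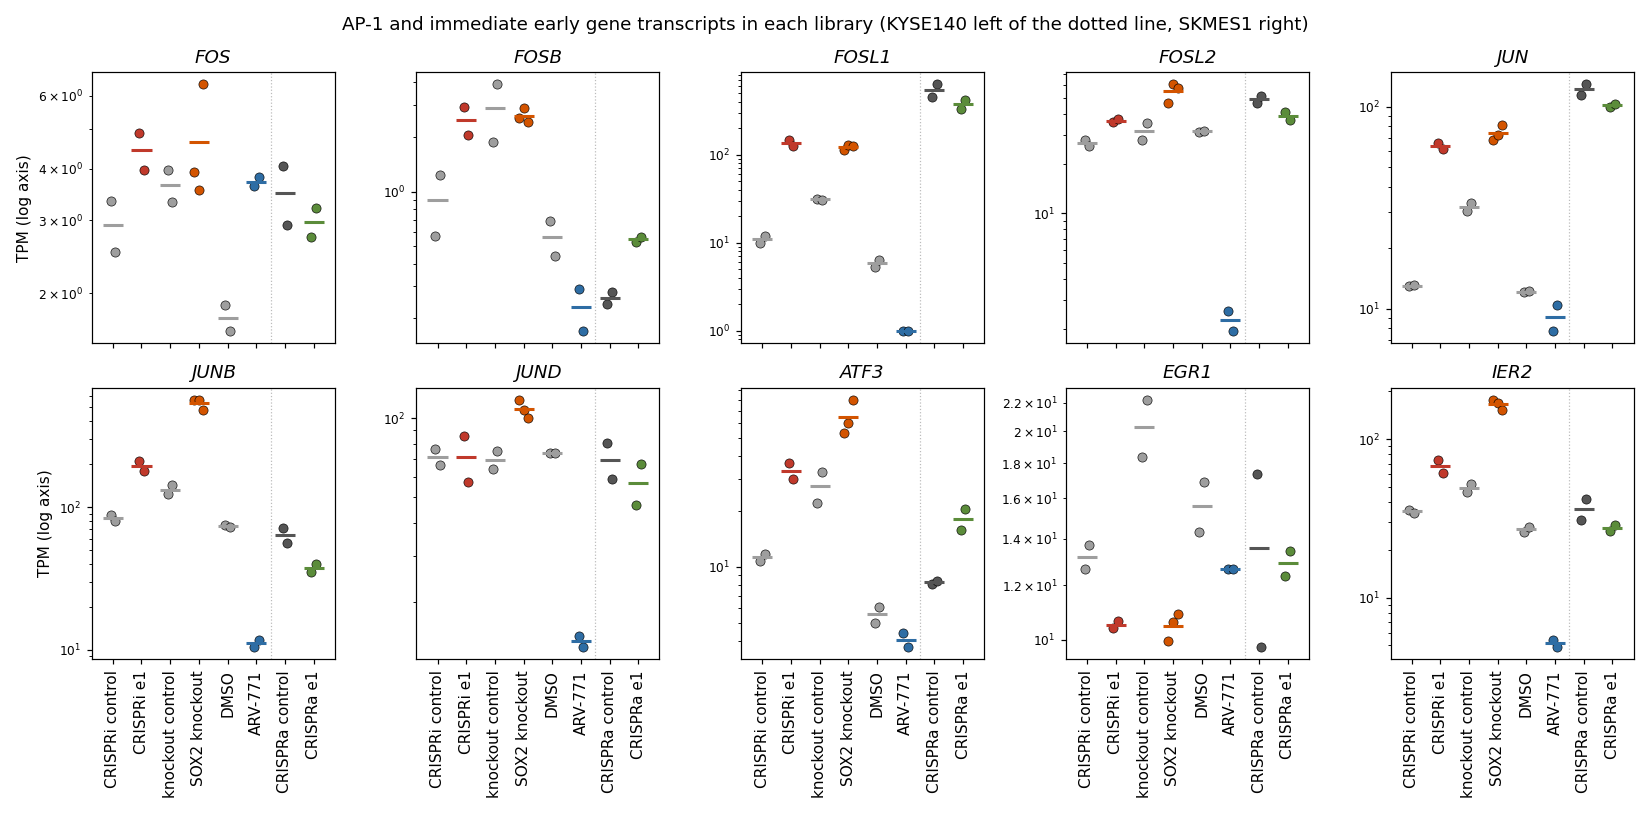
TPM on a log axis for the 10 genes in each of the 17 libraries, with a point per library and a bar at the group mean (controls in grey). *FOSL1* and *JUN* stand higher in the e1 repression and *SOX2* knockout libraries than in their controls and highest in SKMES1, and *JUNB*, *IER2*, *FOSL2* and *JUND* are lowest after ARV-771.

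The libraries held 7260730 to 15781463 counts each. *SOX2*, the target of the perturbations, fell from 379 and 365 TPM to 120 and 128 TPM under e1 repression, and from 236 and 223 TPM to 9.80 and 10.5 TPM after ARV-771. In the *SOX2* knockout libraries it was 103, 125 and 221 TPM for guides 2, 3 and 4 against 397 and 428 TPM, where transcripts with small insertions or deletions may still be counted. In SKMES1 it was 1.68 and 1.53 TPM without and 224 and 316 TPM with e1 guides. KYSE140 carried its squamous markers (*KRT5* 2398 to 8392 TPM), whereas the 6 summed squamous markers were 72.1 to 206 TPM in the SKMES1 controls and 74.5 to 89.4 TPM with e1 guides. There *KRT5* was at most 1.26 TPM, *DSG3* at most 0.10 TPM, *TP63* 1.87 to 3.79 TPM and *KRT6A* 0.32 to 19.2 TPM, while *PERP* was 66.7 to 81.4 TPM and *KRT14* ran from 0 to 118 TPM between libraries, so only some of the markers fitted the label. The leukocyte and endothelial markers *PTPRC*, *CD74* and *CDH5* were at most 0.41 TPM in KYSE140. *CD74* was 20.02 to 30.4 TPM in SKMES1, where *PTPRC* was at most 0.55 TPM. The mesenchymal markers *VIM*, *COL1A1* and *PDGFRB* summed to 1660 to 2280 TPM in the SKMES1 controls and 1200 to 1310 TPM with e1 guides. *VIM* alone was 1178 to 2268 TPM in that line. Of the simple epithelial markers there, *KRT8* was 375 to 685 TPM, *KRT18* 253 to 460 TPM, *EPCAM* 29.4 to 41.7 TPM and *CDH1* 0.60 to 4.74 TPM.

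Repression of e1 asks which genes follow when the enhancer is silenced. Of the 10 genes, 6 rose and none fell (edgeR quasi-likelihood test over 13792 genes, called at an adjusted p below 0.05 with a change of more than 1.5-fold), where 20% of all tested genes were called, 9.3% as higher and 10.7% as lower. The median log2 fold change was 1.07 over the 10 genes and -0.0015 over all tested genes. The risen genes were *FOSL1* and *FOSB* of the FOS family, *JUN* and *JUNB* of the JUN family, the stress factor *ATF3* and *IER2*, whereas *FOS*, *FOSL2*, *JUND* and *EGR1* did not pass. In bulk samples fewer cells of a type and less RNA per cell cannot be told apart.

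*FOSL1* encodes FRA1, a FOS protein without the strong activation domain of FOS that persists in growing and invasive cells. It measured 9.97 and 11.8 TPM in the control libraries and 146 and 124 TPM in the e1 repression libraries. All e1 repression values lay over 10 times the control values of *FOSL1*, and the log2 fold change was 3.58 ± 0.10 (SE, adjusted p = 5e-13). *JUN*, the founding AP-1 subunit, measured 12.9 and 13.1 TPM in the controls and 65.8 and 61.5 TPM under repression, a log2 fold change of 2.31 ± 0.08 (adjusted p = 1.9e-12). Replicates of *JUN* lay far closer to each other than the groups did.

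*JUNB*, a JUN protein that opposes JUN at many promoters and is abundant in keratinocytes, measured 87.8 and 80.3 TPM against 209 and 180.04 TPM, a log2 fold change of 1.23 ± 0.08 (adjusted p = 3.7e-09). *ATF3*, which pairs with JUN proteins and is induced by many stresses, measured 10.8 and 11.7 TPM against 36.3 and 29.95 TPM, a log2 fold change of 1.55 ± 0.12 (adjusted p = 3.4e-08). *IER2*, a small nuclear protein of the immediate early class, measured 35.9 and 34.2 TPM against 73.4 and 61.5 TPM, a log2 fold change of 0.90 ± 0.09 (adjusted p = 8.2e-07). In TPM the groups did not overlap for these 3, but nor did they for *FOS*, *FOSL2* and *EGR1*, which did not pass. The share of all genes without overlap was not counted, so lack of overlap is not read as a change. *FOSB* rested on 14 and 17 control counts, against 44 and 33 under repression, with a log2 fold change of 1.58 ± 0.38 (adjusted p = 0.0032). Its call was lost without e1 guide 1 (adjusted p = 0.053) and on the TPM scale with limma (log2 fold change 0.89, adjusted p = 0.12).

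The members that did not pass were those with the least change. *FOSL2*, which encodes FRA2, measured 27.9 and 25.6 TPM against 35.9 and 37.4 TPM, and its log2 fold change of 0.24 ± 0.07 had an adjusted p of 0.0083 but a fold of 1.18. *EGR1* measured 12.7 and 13.7 TPM against 10.4 and 10.6 TPM, a log2 fold change of -0.31 ± 0.11 (adjusted p = 0.033) that also stayed within the 1.5-fold limit. *JUND*, the JUN protein of resting cells, measured 76.1 and 66.6 TPM against 85.35 and 57.05 TPM, so its groups overlapped (log2 fold change -0.11 ± 0.09, adjusted p = 0.35). *FOS* had 39 and 35 counts against 41 and 17 counts (log2 fold change -0.07 ± 0.40, adjusted p = 0.9). On the TPM scale *FOS* was 3.34 and 2.51 against 4.89 and 3.97, where the second e1 library had an effective length of 609 bases, and no direction can be read from it.

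**Figure D2:**
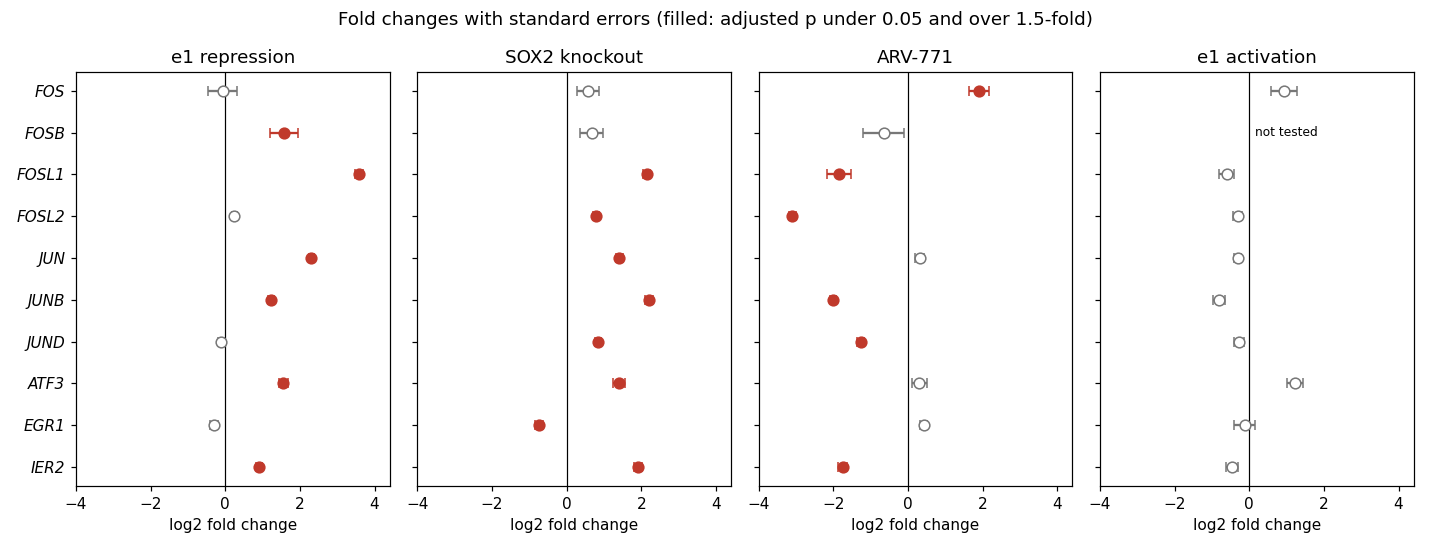
Log2 fold change of each of the 10 genes in the 4 perturbations, with bars of 1 standard error that are often smaller than the point. Filled points passed the adjusted p and the 1.5-fold limit: 6 genes under e1 repression, 8 under *SOX2* knockout, 6 after ARV-771 and none under e1 activation.

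The lists around AP-1 differed in how many of their genes passed, where 20% of all tested genes did, 9.3% as higher. Of the 27 other immediate early genes 25 were tested and 12 rose, none fell, with a median log2 fold change of 0.65; they included *CYR61* (1.499 ± 0.07), *PPP1R15A* (1.43 ± 0.07), the regulatory subunit that restores translation after stress, and *MYC* (0.97 ± 0.06). Of 16 feedback genes of the MAP kinase pathway 7 rose and 1 fell. The nuclear ERK phosphatases *DUSP4* (log2 fold change 3.49 ± 0.16) and *DUSP5* (3.62 ± 0.17) rose most clearly, with *PHLDA1* at 0.71 ± 0.06. Of 17 tested upstream kinases and SRF factors 2 rose, the ternary complex factor *ELK3* (1.85 ± 0.09) and *MAP2K1* (0.66 ± 0.07), which encodes the ERK kinase MEK1. The share of this list that was called was below that of all tested genes. Of 9 tested further dimer partners 3 rose, among them *MAFF* (1.23 ± 0.16) and *CREB5*, and 1 fell, *JDP2* (-0.69 ± 0.18), a repressor that pairs with JUN. Only 2 of these partners, both higher, passed with DESeq2. All 20 tested genes of 23 widely described as AP-1 targets rose, with a median log2 fold change of 3.52, among them *CCND1* (1.69 ± 0.05) and the cornified envelope gene *SPRR3* (6.05 ± 0.19). The lists were chosen with earlier results of these data known, so their counts are no independent support for a change of AP-1 activity.

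Of the cell type markers, 12 were tested and 7 were called in this comparison, 4 higher and 3 lower. The summed level of the mesenchymal markers *VIM*, *COL1A1* and *PDGFRB* was 127 to 138 TPM in the controls and 1120 to 1190 TPM under repression, with *PDGFRB* at most 0.08 TPM in any KYSE140 library, and the summed squamous markers were 6240 to 6270 and 9700 to 9760 TPM. Within the squamous sum *KRT14* and *KRT6A* were called higher, *TP63* was called lower (log2 fold change -0.62 ± 0.05), and *KRT5*, *DSG3* and *PERP* did not pass. The part of these marker changes in the results on AP-1 was not tested.

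**Figure D3:**
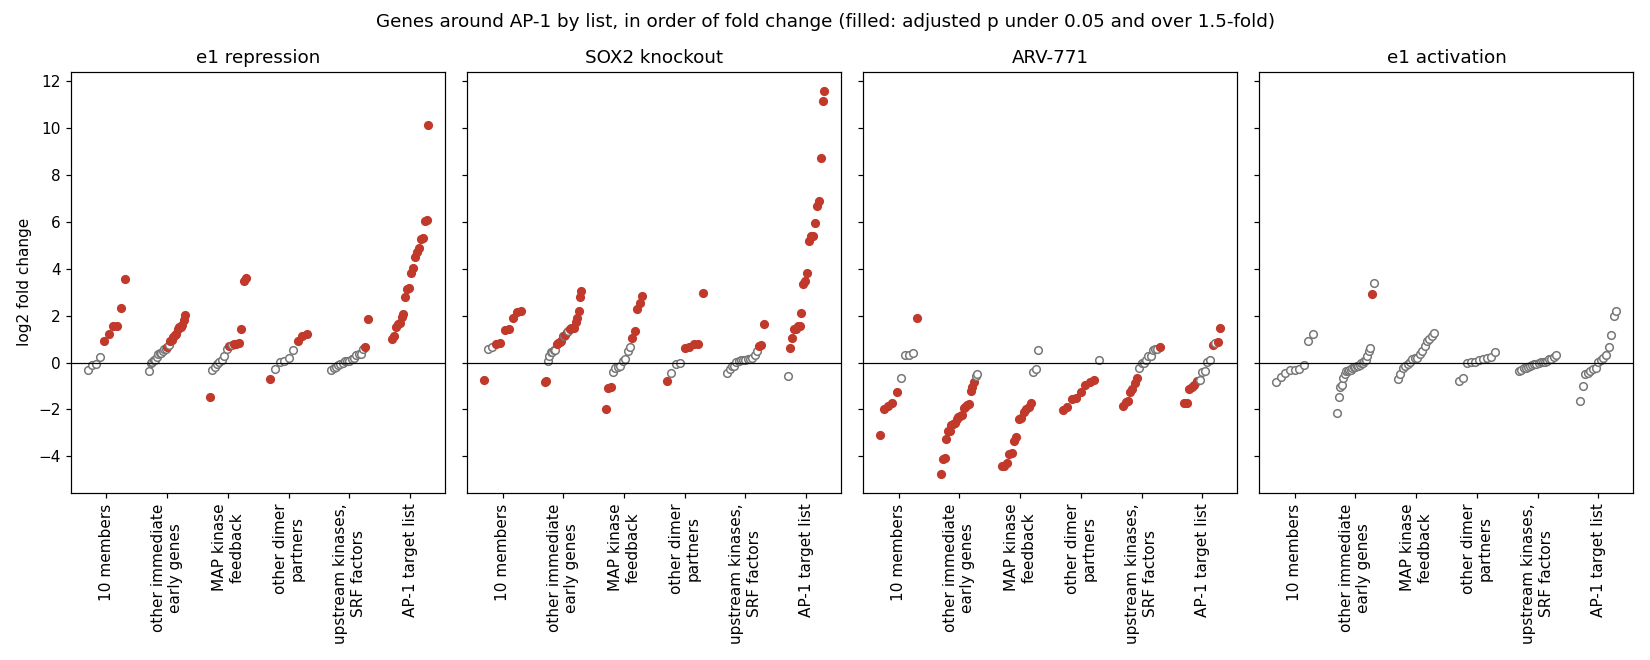
Log2 fold change of each tested gene by list in the 4 perturbations, ordered within a list, with filled points for genes that passed. The target list lies above 0 under e1 repression, where all 20 tested genes rose, and 20 of 22 tested other immediate early genes fell after ARV-771. The lists were chosen with earlier results of these data known.

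Knockout of *SOX2* asks what the loss of the gene product itself does. Of the 10 genes, 7 rose and 1 fell, where 29.7% of 13978 tested genes were called, 16.3% as higher and 13.5% as lower. The median log2 fold change was 1.11 over the 10 genes and -0.0066 over all tested genes. Scaling by library size alone moved the median over genes averaging 50 counts or more to -0.21 and turned the split of all calls from 2275 higher and 1882 lower into 1703 and 2999. Under it 6 members rose and 1 fell, since *FOSL2* no longer reached the 1.5-fold limit. The library of guide 4 stood apart from the other 2 knockout libraries, with a chi-square of the counts per degree of freedom of 13.4 against guide 2 and 6.79 against guide 3, where guides 2 and 3 gave 2.86. Without guide 4, 7 members rose and 1 fell.

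*JUNB* measured 123 and 142 TPM in the control libraries and 563, 561 and 478 TPM with guides 2, 3 and 4. Its log2 fold change was 2.22 ± 0.11 (adjusted p = 1.2e-08), and the lowest knockout library lay far above the highest control. *IER2* measured 46.1 and 51.8 TPM against 176, 169.6 and 152 TPM, a log2 fold change of 1.91 ± 0.11 (adjusted p = 3.7e-08). *FOSL1* measured 31.4 and 30.7 TPM against 111, 128 and 126 TPM, a log2 fold change of 2.14 ± 0.09 (adjusted p = 3.1e-09). For *FOSL1* the control libraries of this experiment stood nearly 3 times as high as those of the e1 experiment, and the perturbed libraries of the 2 experiments overlapped.

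*JUN* measured 30.3 and 33.4 TPM against 68.5, 72.4 and 81.3 TPM (log2 fold change 1.42 ± 0.08, adjusted p = 5.8e-08). *ATF3* measured 22.2 and 32.8 TPM against 53.3, 60.1 and 79.95 TPM (1.40 ± 0.17, adjusted p = 2.2e-05). Guide 4, whose library kept the most *SOX2* transcript, gave the highest *JUN* and *ATF3* values and the lowest *JUNB* and *IER2* values of the 3 guides. *JUND* measured 64.0 and 75.3 TPM against 117, 108 and 99.8 TPM (0.83 ± 0.08, adjusted p = 3.8e-06), and *FOSL2* measured 28.1 and 35.3 TPM against 46.65, 61.0 and 57.7 TPM (0.78 ± 0.08, adjusted p = 9.6e-06). In TPM the groups did not overlap for *JUND* and *FOSL2*. The share of all genes without overlap was not counted here either, so this is not read as a change.

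*EGR1* went the other way, from 18.4 and 22.2 TPM to 9.95, 10.6 and 10.9 TPM, a log2 fold change of -0.75 ± 0.11 (adjusted p = 0.00011). It was the single member that fell. *FOS* (3.96 and 3.33 TPM against 3.93, 3.56 and 6.40 TPM) had a log2 fold change of 0.57 ± 0.29 (adjusted p = 0.12). *FOSB* (1.88 and 3.91 TPM against 2.56, 2.89 and 2.43 TPM) had a log2 fold change of 0.67 ± 0.31 (adjusted p = 0.091), and on the TPM scale its difference changed sign (-0.05). *FOSB* passed when the Chr2.2 control or guide 2 was left out (adjusted p = 0.043 in either case).

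Over all tested genes 29.7% were called in this comparison. Of 26 tested other immediate early genes 16 rose and 2 fell, with a median log2 fold change of 1.13. *IER5* (2.78 ± 0.12), *KLF6* (1.91 ± 0.10) and *KLF4* (1.47 ± 0.08), a factor of epithelial barrier genes, were the most clearly higher. Of 16 feedback genes 5 rose, with *DUSP4* (2.83 ± 0.13), *DUSP5* (2.52 ± 0.13) and *DUSP1* (2.30 ± 0.15) in front, and 3 fell, so the list as a whole had a median of 0.10. Of 9 tested dimer partners 5 rose and 1 fell, among them *MAFK* (0.78 ± 0.09) and *MAFF* (0.79 ± 0.11). With library size scaling the partners split into 2 higher and 2 lower. Of 17 upstream genes 3 rose (1 higher and 1 lower with library size scaling), *ELK3* (1.66 ± 0.10), *MAP2K1* (0.74 ± 0.08) and the SRF coactivator *MKL1* (0.73 ± 0.08). The called share of the upstream list was below that of all tested genes. Of 20 tested AP-1 targets 19 rose, with a median log2 fold change of 3.65, including *PLAU* (5.96 ± 0.17) and *MMP13* (5.39 ± 0.16), and *TIMP1* did not pass (-0.56 ± 0.14, a fold under 1.5). Library size scaling left 18 targets higher and 1 lower. Here too the lists had been chosen with earlier results of these data known. Of 12 tested cell type markers 11 were called, 8 higher and 3 lower. The summed mesenchymal markers were 247 to 283 TPM in the controls and 1200 to 1320 TPM in the knockouts, and the summed squamous markers were 7170 to 7180 and 23200 to 27200 TPM. Within the squamous sum *TP63* was called lower (-1.22 ± 0.08) and the other markers higher. The part of these marker changes in the results was not tested.

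Whether silencing the enhancer and cutting the gene changed the family to a different extent was tested by the difference of the log2 fold changes in a single fit of the 4 groups. It passed for 5 of the 10 genes, where 16.6% of 14455 tested genes passed, 8.21% with the larger value under e1 repression and 8.37% with the smaller. *FOSL1* (difference 1.45 ± 0.14, adjusted p = 9.3e-06) and *JUN* (0.91 ± 0.11, adjusted p = 4.6e-05) rose more under e1 repression. *JUNB* (-0.97 ± 0.15, adjusted p = 0.00034) and *IER2* (-0.99 ± 0.16, adjusted p = 0.00039) rose less. For *JUND*, which rose under knockout and did not pass under e1 repression, the difference was -0.92 ± 0.13 (adjusted p = 0.00012). The call of *JUND* was lost on the TPM scale with limma (adjusted p = 0.081). For *FOSL2* the difference of -0.53 ± 0.11 had an adjusted p of 0.0023 and a fold under 1.5, and for *EGR1* 0.46 ± 0.15 had an adjusted p of 0.032. *ATF3* (0.18 ± 0.24), *FOSB* (0.92 ± 0.50) and *FOS* (-0.63 ± 0.53) did not pass. Of 26 other immediate early genes 3 had the larger and 7 the smaller value under e1 repression, with *CTGF* at 1.91 ± 0.24, *KLF4* at -1.22 ± 0.11 and *KLF6* at -1.40 ± 0.15. Of 16 feedback genes 4 had the larger and 1 the smaller value, with *ETV4* at 1.14 ± 0.16, *DUSP5* at 1.12 ± 0.24 and *DUSP6* at 0.65 ± 0.17. *MAPK3* (-0.78 ± 0.16), which encodes ERK1, was the single one of 17 upstream genes that passed. Of 20 targets 3 had the larger and 2 the smaller value, with *AREG* at 1.45 ± 0.12, *TIMP1* at 1.58 ± 0.19 and *SPRR1B* at -2.61 ± 0.48. The experiments also differed in construct and control guides, which cannot be told apart from the target of the guides.

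Those controls were not alike for the family. Over the CRISPRi, knockout and DMSO control libraries of KYSE140, 7 of the 10 genes differed, where 16.5% of 13957 tested genes did. The 3 that did not pass were *FOS*, *FOSL2* and *JUND*. *FOSL1* averaged 31.0 ± 0.49 TPM (SD, n = 2) in the knockout controls, 10.9 ± 1.3 TPM in the CRISPRi controls and 5.85 ± 0.71 TPM in DMSO. The knockout controls exceeded the CRISPRi controls by 1.45 ± 0.14 for *FOSL1*, 1.26 ± 0.09 for *JUN*, 1.27 ± 0.15 for *ATF3* and 0.63 ± 0.08 for *JUNB* on the log2 scale. *JUN* did not differ detectably between the CRISPRi controls and DMSO (0.01 ± 0.10, adjusted p = 0.97). The groups differed in the Cas9 or fusion carried, the guides and the solvent, which cannot be told apart here.

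ARV-771 asks what BET protein loss does within 6 h. Of the 10 genes, 5 fell and 1 rose, where 52.9% of 13500 tested genes were called, 21.2% as higher and 31.7% as lower. The median log2 fold change was -0.96 over the 10 genes and -0.04 over all tested genes. The drug also changed the balance of the libraries: scaling by library size alone moved the median over genes averaging 50 counts or more to -0.45 and left 381 higher and 6076 lower calls in place of 2857 and 4279, and scaling to mitochondrial transcripts moved it to -1.1. Fold changes below are from the TMM scale and are relative to the bulk of genes. Mitochondrial transcripts made up 7.74% and 7.52% of counts with the drug and 4.67% and 5.29% in DMSO.

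*FOSL2* fell the most, from 31.1 and 31.9 TPM in DMSO to 2.56 and 1.93 TPM with the drug, a log2 fold change of -3.10 ± 0.09 (adjusted p = 1.2e-18). *JUNB* measured 74.9 and 72.5 TPM against 10.5 and 11.7 TPM (-2.01 ± 0.09, adjusted p = 5.9e-16). *IER2* measured 25.9 and 28.0 TPM against 5.4 and 4.9 TPM (-1.75 ± 0.12, adjusted p = 1.4e-12). In each of these the drug libraries lay well below the DMSO libraries. *JUND* measured 73.6 and 73.8 TPM against 14.95 and 13.6 TPM (-1.26 ± 0.09, adjusted p = 1.2e-11). *FOSL1* fell from a low start, 59 and 73 counts against 12 and 16 counts, or 5.35 and 6.35 TPM against 0.99 and 1.00 TPM (-1.84 ± 0.32, adjusted p = 1.6e-05). The 5 falls were called under every scaling that was tried.

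*FOS* was the member that rose. It had 32 and 21 counts in DMSO and 69 and 82 counts with the drug, or 1.87 and 1.62 TPM against 3.63 and 3.81 TPM. The log2 fold change was 1.90 ± 0.28 (adjusted p = 1e-06), and it was 1.44 with library size scaling, 0.82 with mitochondrial scaling and 0.78 on the log2(TPM + 1) scale, called as higher each time. *FOSB*, with 14 and 13 counts against 6 and 7 counts, did not pass (-0.65 ± 0.55, adjusted p = 0.29).

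*JUN*, *ATF3* and *EGR1* took their direction from the scaling. *JUN* measured 12.1 and 12.2 TPM in DMSO and 7.74 and 10.4 TPM with the drug, but its log2 fold change on the TMM scale was 0.31 ± 0.11 (adjusted p = 0.014, fold 1.24). *ATF3* measured 5.01 and 6.07 TPM against 4.41 and 3.70 TPM (0.30 ± 0.20, adjusted p = 0.18). *EGR1* measured 14.3 and 16.9 TPM against 12.6 and 12.7 TPM (0.42 ± 0.09, adjusted p = 0.00028, fold 1.34). With library size scaling the 3 values were -0.15, -0.16 and -0.04, and with mitochondrial scaling they were -0.77, -0.77 and -0.65 and passed as lower, so their direction is not settled. On each of these scales all 3 lay above the 5 members that fell.

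The lists around AP-1 differed with the drug, where 52.9% of all tested genes were called, 31.7% as lower. Of 22 tested other immediate early genes 20 fell and none rose, with a median log2 fold change of -2.31. Those with the smallest p-values were *MYC* (-4.75 ± 0.12), *SGK1* (-4.07 ± 0.17) and *MCL1* (-2.91 ± 0.08), an inhibitor of apoptosis with a short-lived transcript. Of 16 feedback genes 13 fell and none rose, with a median of -2.40, among them *PHLDA1* (-3.17 ± 0.11), *DUSP6* (-3.87 ± 0.20) and *SPRED2* (-2.42 ± 0.15). With a minimum mean of 50 counts 7 feedback genes were tested and 5 called. Of 9 tested dimer partners 8 fell, with *MAFK* (-1.89 ± 0.10), *MAFG* (-1.52 ± 0.11) and *ATF2* (-1.26 ± 0.13), and with the same minimum 6 were tested and 5 called. Of 17 upstream genes 7 fell and 1 rose, a called share below that of all tested genes. The smallest p-values among them were those of the SRF partners *MKL1* (-1.67 ± 0.10), *ELK4* (-1.87 ± 0.14) and *MKL2* (-1.65 ± 0.14). With library size scaling none rose and 8 fell. Of 15 tested AP-1 targets 6 fell and 3 rose, with *CCND1* at -0.81 ± 0.05, *AREG* at -1.13 ± 0.10 and *CD44* at 0.73 ± 0.05, and with library size scaling 9 fell and 1 rose. The called share of the targets was near that of all tested genes. Of 12 tested cell type markers 6 rose and 1, *TP63*, fell on the TMM scale, with summed squamous markers of 5730 to 6040 TPM in DMSO and 5720 to 6000 TPM with the drug.

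The make-up of the families followed these changes. In TPM, *FOSL2* held 64.5 ± 3.3% (SD, n = 2) of FOS family transcripts in the CRISPRi controls and 79.4 ± 0.43% in DMSO. Under e1 repression *FOSL1* held 75.5 ± 2.1% against 26.3 ± 3.5% in the controls, and in the *SOX2* knockouts 66.2 ± 1.3% (n = 3) against 45.0 ± 4.4%. The total of the family rose from 41.5 ± 0.51 to 179 ± 16 TPM and from 69.2 ± 5.6 to 184 ± 17 TPM. After ARV-771 the total was 7.19 ± 0.40 TPM against 39.7 ± 0.89 TPM, of which *FOS* made up 51.9 ± 4.6% against 4.4 ± 0.54%. In counts, which favour the long *FOSL2* transcript, the share of *FOSL1* was 50.6% against 9.30% under e1 repression, 39.8% against 20.4% in the knockouts and 6.18% against 4.18% after ARV-771, and that of *FOS* after ARV-771 was 33.6% against 1.70%.

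For the JUN family, *JUNB* and *JUND* together made up most of the TPM in KYSE140 and *JUN* had the lowest mean share in each of its 6 groups. In the second e1 repression library *JUN* (20.6%) exceeded *JUND* (19.1%), and in counts the order differed. In the *SOX2* knockouts *JUNB* held 74.5 ± 1.7% of a total of 716 ± 50 TPM, against 56.6 ± 0.09% of 234 ± 24 TPM. Under e1 repression *JUN* held 19.4 ± 1.7% against 7.75 ± 0.62%, and *JUND* fell in share from 42.3 ± 1.0% to 21.4 ± 3.2% with its mean level at 71.4 and 71.2 TPM. After ARV-771 *JUN* held 26.3 ± 4.1% against 7.61 ± 0.12%, of a total of 34.4 ± 1.8 TPM against 159 ± 1.5 TPM. These shares restate the same TPM values and carry no test of their own.

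**Figure D4:**
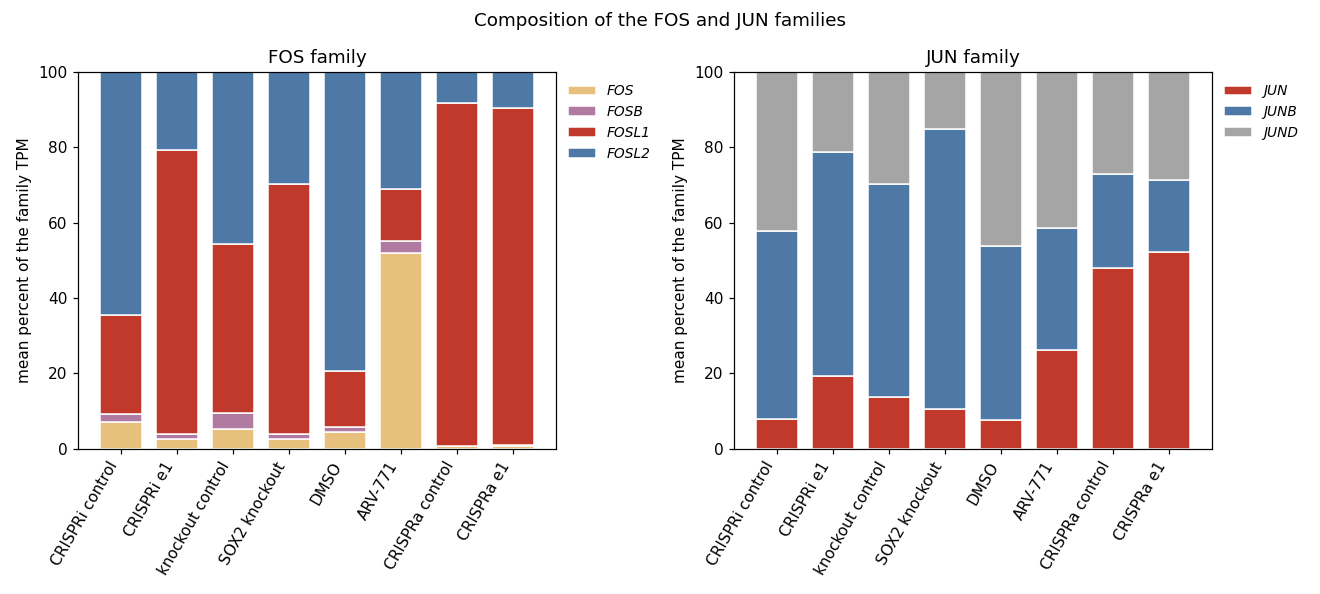
Mean percent of the summed TPM of the FOS family (left) and the JUN family (right) taken by each member in the 8 groups. *FOSL1* takes 75.5% under e1 repression against 26.3% in its controls and 91.0% in SKMES1 controls, and *FOS* takes 51.9% after ARV-771 against 4.4% in DMSO.

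Activation of e1 in SKMES1 asks what switching the enhancer on does where it is quiet. None of the 9 tested genes passed (edgeR quasi-likelihood test), where 0.188% of 14859 tested genes did, 0.168% as higher and 0.0202% as lower. At an unadjusted p under 0.05 there were 2109 genes in all. *FOSB*, with 5 and 8 control counts and 7 and 15 under activation, was left out by the filter on low counts. The 2 control libraries differed from each other more than any other pair of replicates did, with 28.8 as the chi-square of their counts per degree of freedom, against 13.3 for the e1 activation pair, 2.86 to 13.4 for the *SOX2* knockout pairs and 2.19 to 3.05 for the pairs of the e1 repression, knockout control and drug experiments.

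*ATF3* measured 8.13 and 8.40 TPM in the controls and 15.9 and 20.6 TPM with e1 guides, a log2 fold change of 1.23 ± 0.21 (adjusted p = 0.13). *JUNB* measured 71.3 and 56.15 TPM against 34.8 and 40.0 TPM (-0.82 ± 0.16, adjusted p = 0.15), and *FOSL1* 456 and 631 TPM against 327 and 416 TPM (-0.61 ± 0.20, adjusted p = 0.28). In TPM the groups of these 3 and of *FOSL2*, *JUN* and *IER2* did not overlap, though none of them passed in this test. The share of all genes without overlap was not counted, so lack of overlap is not read as a change. *ATF3* and *JUNB* passed with the edgeR exact test (adjusted p = 0.00079 and 0.0036) and with DESeq2 (0.0057 and 0.0074), and *ATF3*, *JUNB* and *FOSL1* passed when all 17 libraries shared the estimate of spread (0.0014, 0.0017 and 0.0052). Without control guide 1 the genes that passed were *ATF3*, *FOSL1* and *IER2*, and without control guide 2 it was *JUNB*.

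*JUN* (115 and 129 TPM against 100.1 and 103 TPM, log2 fold change -0.31 ± 0.10, adjusted p = 0.28), *IER2* (30.7 and 41.8 TPM against 26.5 and 28.6 TPM, -0.46 ± 0.16, adjusted p = 0.29) and *FOSL2* (-0.30 ± 0.12, adjusted p = 0.35) did not pass. *JUND* had a log2 fold change of -0.28 ± 0.13 (adjusted p = 0.41). *EGR1* measured 17.4 and 9.77 TPM in the controls, a spread that contained the 12.4 and 13.4 TPM of the e1 libraries. *FOS* had 16 and 22 counts against 25 and 57 counts (0.93 ± 0.34, adjusted p = 0.32), and its TPM of 4.06 and 2.92 against 2.73 and 3.21 overlapped. Of the lists around AP-1, *CTGF* (2.94 ± 0.26, adjusted p = 0.035), a YAP and SRF target, was the single gene called among 25 other immediate early genes. None of 16 feedback genes, 10 dimer partners, 18 upstream genes or 15 AP-1 targets passed; with the edgeR exact test 2 feedback genes and 2 targets did. None of 11 tested cell type markers passed.

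The levels of the family in the control libraries were also compared between the lines. With the 2 SKMES1 controls set against the mean of the 3 KYSE140 control groups, 6 of the 10 genes passed, where 57.2% of 15532 tested genes did, 31.4% as higher in SKMES1 and 25.8% as lower, so the share of members was near that of all genes. *FOSL1* was higher in SKMES1 by a log2 difference of 5.33 ± 0.11 (adjusted p = 2.1e-10) and *JUN* by 2.70 ± 0.06 (adjusted p = 2.7e-10). *FOSB* (-1.69 ± 0.42), *FOS* (-0.94 ± 0.29), *ATF3* (-0.82 ± 0.18) and *JUNB* (-0.69 ± 0.10) were lower. The calls of *JUNB* (-0.56) and *ATF3* (-0.50) were lost on the log2(TPM + 1) scale, that of *JUNB* also without SKMES1 control guide 2 (-0.50), and that of *FOS* without control guide 1 (adjusted p = 0.07). On the log2(TPM + 1) scale *FOS* was higher instead (0.28, adjusted p = 0.2), since its effective length was 560 and 910 bases in the SKMES1 controls. *FOSL2* (0.54 ± 0.09), *JUND* (-0.14 ± 0.08), *EGR1* (-0.38 ± 0.19) and *IER2* (-0.21 ± 0.10) did not pass. *FOSL1* held 91.0 ± 1.4% of FOS family TPM in the SKMES1 controls and *JUN* 48.0 ± 6.9% of JUN family TPM. Of the lists, 12 of 26 other immediate early genes were higher and 4 lower in SKMES1, and 11 of 18 AP-1 targets were higher and 5 lower. The line and the activator fusion cannot be told apart in this comparison.

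Ordered by mean TPM over the 8 groups, *FOSL1* ran from the SKMES1 controls (543 ± 123) and e1 activation (371 ± 63) through e1 repression (135 ± 16), *SOX2* knockout (122 ± 9.2), knockout control, CRISPRi control and DMSO to ARV-771 (0.995 ± 0.007). Of these neighbours only e1 repression and *SOX2* knockout overlapped in their values. *JUN* had the SKMES1 groups first and then *SOX2* knockout, e1 repression, knockout control, CRISPRi control, DMSO and ARV-771, with no overlap between neighbours. *JUNB* was highest in *SOX2* knockout (534 ± 48) and e1 repression (195 ± 21) and lowest in e1 activation (37.4 ± 3.7) and ARV-771 (11.1 ± 0.86), also without overlap between neighbours. *EGR1* differed least, from 20.3 ± 2.7 TPM in the knockout controls to 10.5 ± 0.48 TPM in the *SOX2* knockouts, and the groups ranked second to sixth overlapped with their neighbours, as did the last ranked pair.

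Likeness of pattern was measured as the root mean square difference of centred log2(TPM + 1) group means over the 8 groups. Among the members, *JUNB* and *IER2* were nearest to each other (0.39), as were *FOSL2* and *JUND* (0.52). *FOS* and *EGR1* were also each other's nearest member, at 0.485. That distance exceeded the SD of either over the groups (0.32 for *FOS* and 0.29 for *EGR1*), so their patterns were not alike. The nearest member to *FOSL1* was *JUN*, at 1.38. Among 14873 genes the nearest to *FOSL1* were *PRSS23* (0.76), *MYEOV* (0.82) and *MICAL2* (0.85). *PRSS23*, a secreted serine protease, averaged 2.13 and 136 TPM in the CRISPRi control and e1 repression groups, 6.48 and 82.4 TPM in the knockout control and *SOX2* knockout groups, and 234 TPM in the SKMES1 controls. The nearest to *FOS* was the pseudogene *TMSB4XP4* (0.12), whose reads may be shared with its parent gene, followed by *AC002456.2* and *ZNF333* (0.18 each), and the nearest to *EGR1* were *GK5* (0.10), *PTS* (0.13) and *PPIP5K2* (0.13). Genes of small range such as *FOS* and *EGR1* lie near many others on this measure.

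The genes lie on 6 chromosomes of GRCh37, of which chromosome 19 carries *FOSB* (45971253 to 45978437, plus strand), *JUNB* (12902300 to 12904129, plus), *JUND* (18390504 to 18392432, minus) and *IER2* (13261225 to 13265725, plus). *JUN* (59242517 to 59249720, minus) and *ATF3* (212738676 to 212794119, plus) are on chromosome 1, *FOSL2* (28615315 to 28640184, plus) on chromosome 2, *EGR1* (137801168 to 137804992, plus) on chromosome 5, *FOSL1* (65659520 to 65668044, minus) on chromosome 11 and *FOS* (75745529 to 75748933, plus) on chromosome 14. In the GENCODE annotation *FOSB* overlaps *ERCC1*, *JUNB* overlaps *HOOK2*, *FOSL2* overlaps *FOSL2-AS1*, *ATF3* overlaps *RN7SL512P* and *IER2* overlaps lncRNAs, each on the opposite strand, and *FOSL2* also overlaps a lncRNA on its own strand. The libraries were directional, but the strand setting of the counting was not given in the sources used here, so reads of these pairs may be mixed.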

How the data were processed

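Poly-A RNA-seq of 17 libraries was analysed. Per the study's methods, the authors ran RSEM with Bowtie2 on hg19 and GENCODE genes; versions were not given in the sources used here. The deposited expected counts (estimated counts per gene, not normalized) were rounded to whole numbers, and for the 10 genes all were whole. The deposited TPM were scaled by the authors within each library and were used for levels. The effective length deposited beside them was read as bases and enters tests only through the TPM used in the limma fits. Groups came from the treatment labels. Each comparison was fitted with edgeR 4.0.16 (R 4.3.3), TMM factors, filterByExpr (minimum count 10, minimum total 15) and the quasi-likelihood test with Benjamini-Hochberg adjustment; calls needed an adjusted p below 0.05 with a change of more than 1.5-fold. A standard error is the log2 fold change divided by the root of its F statistic. Libraries held 7260730 to 15781463 counts. The scripts were tested on simulated data. Alternatives used DESeq2 1.42.0, limma 3.58.1 on log2(TPM + 1) and log2(TPM + 0.1), other scalings and filters (the limma fits kept genes whose mean TPM was 1 or more). The members and gene lists were chosen with earlier results of these data known. Named are all members, *SOX2*, up to 3 called genes of each list with the smallest p in a comparison, and the nearest genes in pattern; *CREB5*, *TIMP1* under knockout and marker genes were added after their values were seen. Some genes that this rule names are not reported here. GRCh37 positions come from GENCODE v44lift37, promoter windows from RefSeq (GRCh38.p14) matched to GRCh37.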

Additional observations from a re-analysis of the deposited data

Results flagged for a closer look

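For 5 genes the effect of e1 repression differed from the effect of *SOX2* knockout in a test of the difference itself, a contrast of the 4 groups in a single edgeR fit with the adjusted p over 14455 genes. The difference of the log2 fold changes, e1 repression minus knockout, was 1.45 for *FOSL1* and 0.91 for *JUN*. It was -0.92 for *JUND*, -0.97 for *JUNB* and -0.99 for *IER2*. The control groups of the 2 experiments differed by 1.45 for *FOSL1*, 1.26 for *JUN*, 0.63 for *JUNB*, 0.44 for *IER2* and -0.04 for *JUND* (knockout controls minus CRISPRi controls, log2). By construction this control gap is contained in each difference of effects. The means under e1 repression and knockout were 135 and 122 TPM for *FOSL1* and 63.7 and 74.1 TPM for *JUN*. They were 195 and 534 TPM for *JUNB*, 67.5 and 166 TPM for *IER2* and 71.2 and 108 TPM for *JUND*. Why the controls differed was not tested. No group had 4 or more libraries, so no test for a single outlying value was made. The library of knockout guide 4 stood apart from the other knockout libraries in its counts over genes, as given with the knockout results.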

How the results depend on the processing

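Without a minimum fold change 6103 genes passed under e1 repression and 7123 under *SOX2* knockout, since the fold limit was dropped. Under e1 repression *FOS* reversed to 0.47 with limma on log2(TPM + 1), 0.59 with log2(TPM + 0.1), and to 0.03 without control guide 1, with a range of -0.91 to 0.48 over libraries left out, and *JUND* reversed without e1 guide 2 (range -0.229 to 0.0121). Under knockout *FOSB* reversed to -0.05 on either TPM scale (-0.0543 and -0.051). With ARV-771, *JUN*, *ATF3* and *EGR1* reversed to -0.15, -0.16 and -0.0408 with library size only, -0.40, -0.37 and -0.28 on log2(TPM + 1), -0.43, -0.44 and -0.30 on log2(TPM + 0.1), and -0.77, -0.77 and -0.65 with mitochondrial scaling, which called all 10 members. Under e1 activation the exact test called 2 members and 510 genes, DESeq2 2 and 374, no filter on low counts 3 and 1116, all libraries in a single fit 3 and 791, and limma 9 genes with log2(TPM + 1) and 8 with log2(TPM + 0.1), where *FOS* reversed to -0.17 and -0.21. Leaving out a library there gave 0 to 3 members and 1 to 764 genes, and *EGR1* reversed without control guide 1 (range -0.496 to 0.371). In the difference of effects *FOS* reversed to 0.22 on log2(TPM + 1) and *ATF3* without the Chr2.2 control (range -0.103 to 0.439). Between the lines *FOS* reversed to 0.28 on log2(TPM + 1) and *EGR1* without SKMES1 control guide 2 (range -0.869 to 0.00229). The cause was not tested except where stated. Other counts of members stayed within 1.5 times the values reported.

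With the guide number or sample letter as a replicate block, 6 members and 2807 genes passed under e1 repression and 6 members and 7090 genes with ARV-771. Same-numbered libraries did not deviate together (correlations of 0.016 and -0.026), so the numbers do not pair them, and no call of a member changed. No paired analysis was possible because the other groups share fewer than 2 label numbers. The share of *FOSL1* in counts was added after the data were seen. Depth limits *FOS* and *FOSB*, at 5 to 82 counts, and 2 or 3 libraries a group limit every test.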
